A study of Mus musculus with 13 samples.

Results

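The genes described here govern how pyruvate, the end product of glycolysis, enters mitochondria and is used there. They were chosen by symbol in the deposited expression table. Of 10 symbols, 8 matched 1 row each among 11761 listed rows: Mpc2, Pdhb, Dlat, Dld, Pdhx, Pcx, Pdk2 and Pdk4. The other 2, Mpc1 and Pdha1, had no row under those symbols and were not analysed here. Ribosome-bound RNA came from epididymal white fat of Adipoq-NuTRAP mice on the C57BL/6J background, in 2 groups of 3 libraries: high-fat diet (HFD) for 10 weeks, and chow for 10 weeks. Both groups carried the same NuTRAP reporter, driven through the adiponectin gene's promoter, whose GFP tag on ribosomes lets adipocyte RNA be pulled down from homogenized fat. The maintenance chow held 6.4% fat by weight. The sources used here do not give the composition of the HFD, the age of the mice or whether a library is 1 animal. P-values therefore reflect only how far these libraries scatter, and that scatter may be technical.

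Pyruvate crosses the inner mitochondrial membrane through a carrier built from the products of Mpc1 and Mpc2. In the matrix it meets the pyruvate dehydrogenase complex, which turns it into acetyl-CoA, or pyruvate carboxylase (Pcx), which turns it into oxaloacetate. Kinases such as those encoded by Pdk2 and Pdk4 switch the dehydrogenase off by phosphorylation, and phosphatases switch it on again. In adipocytes these steps feed citrate export for fatty acid synthesis and the making of glycerol for triglycerides.

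Shown here are the starts of the 3 genes called lower in HFD and of the 1 whose HFD libraries all stood higher. They can be compared letter by letter. The windows of Dld and Pdhx are not shown, though their log2 fold changes (-0.40 and -0.43) were near that of Pdhb (-0.43). Sequences are RefSeq windows of GRCm38.p6, from 250 bases before to 50 bases after an annotated start, on the gene's own strand. Pcx has 2 starts with a window, both shown, and Pdk2 has 2, of which the upstream one is shown. The annotated span of Pdhb reaches to 8173303, beyond the upstream edge of its window at 8173242, so the start shown lies inside that span. Capitals mark the CCAAT box (CCAAT or, on the other strand, ATTGG), the E-box CACGTG and the nuclear receptor half-site AGGTCA (on the other strand TGACCT).
Mpc2, chr1:165461010-165461309, plus strand: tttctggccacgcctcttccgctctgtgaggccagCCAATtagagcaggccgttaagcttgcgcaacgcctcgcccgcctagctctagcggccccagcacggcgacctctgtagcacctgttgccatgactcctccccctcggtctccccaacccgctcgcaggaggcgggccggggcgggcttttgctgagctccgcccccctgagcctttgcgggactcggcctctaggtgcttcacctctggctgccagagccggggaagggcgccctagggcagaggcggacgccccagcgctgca
Pdhb, chr14:8172943-8173242, minus strand: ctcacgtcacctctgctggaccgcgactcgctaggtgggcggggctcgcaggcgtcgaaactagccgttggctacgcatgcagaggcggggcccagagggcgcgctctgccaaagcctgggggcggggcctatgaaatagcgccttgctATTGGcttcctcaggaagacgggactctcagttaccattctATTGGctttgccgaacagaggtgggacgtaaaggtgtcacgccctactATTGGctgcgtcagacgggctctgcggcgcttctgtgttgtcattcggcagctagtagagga
Pcx, chr19:4510222-4510521, plus strand: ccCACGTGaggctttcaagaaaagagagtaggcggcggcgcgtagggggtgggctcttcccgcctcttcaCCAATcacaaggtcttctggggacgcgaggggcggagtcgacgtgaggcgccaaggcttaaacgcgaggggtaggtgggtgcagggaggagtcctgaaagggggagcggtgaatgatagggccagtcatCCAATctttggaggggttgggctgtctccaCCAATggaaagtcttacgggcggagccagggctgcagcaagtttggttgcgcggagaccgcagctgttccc
Pcx, chr19:4594069-4594368, plus strand: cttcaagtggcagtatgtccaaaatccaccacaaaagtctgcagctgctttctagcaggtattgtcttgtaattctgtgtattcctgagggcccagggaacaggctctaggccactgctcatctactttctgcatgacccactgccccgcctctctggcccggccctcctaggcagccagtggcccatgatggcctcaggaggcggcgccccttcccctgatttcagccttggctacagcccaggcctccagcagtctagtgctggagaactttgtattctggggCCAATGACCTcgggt
Pdk2, chr11:95041322-95041621, minus strand: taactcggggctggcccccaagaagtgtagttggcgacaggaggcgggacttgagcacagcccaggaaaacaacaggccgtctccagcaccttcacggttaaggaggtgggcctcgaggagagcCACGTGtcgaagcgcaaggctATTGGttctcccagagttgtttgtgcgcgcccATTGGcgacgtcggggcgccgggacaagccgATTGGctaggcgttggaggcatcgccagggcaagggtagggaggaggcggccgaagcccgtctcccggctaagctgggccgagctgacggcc

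All 8 listed genes had such windows, 10 in total, and 6 motifs were searched on both strands. A CCAAT box lay in 8 of the 10, against 37.4% of 32851 windows of the same length over all genes. At least 3 CCAAT boxes lay in 3 windows, those of Pdk2, Pdhb and the upstream start of Pcx, against 3.37% of all windows. That minimum of 3 was set with the calls known, and a link between CCAAT boxes and the calls was not tested. The E-box lay in 2 of the 10 (7.15% of all windows), in Pdk2 and at the upstream start of Pcx. The half-site lay in 1 (16.3% of all windows), at the downstream start of Pcx, where it shares a base with a CCAAT box. GC boxes (GGGCGG, left in lower case) lay in 5 of the 10, against 35.7% of all windows. The forkhead letters GTAAACA (3.65%) and the TATA letters TATAAA (13.6%) lay in 0 of the 10. The downstream Pcx window held 5 CpG dinucleotides and the other 9 held 12 to 28, with a median of 7 over all windows. These are matches of letters, not measured binding, and the shares over all windows were not matched for CpG content.

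RNA of Pdk2 and Pcx was lower in HFD than in chow adipocyte pulldowns, and RNA of Pdhb was lower by less and less firmly. The level of Pdk2, in counts per 1000000 reads (CPM), averaged 28.7 ± 4.26 in HFD and 62.0 ± 12.7 in chow (SD, n = 3 each). Pcx averaged 1080 ± 94.8 CPM in HFD and 1812 ± 211 CPM in chow. Mpc2 was the 1 member whose HFD libraries all lay above chow, while Dlat and Pdk4 overlapped between diets. Levels are compared between diets within a gene, since CPM is not corrected for gene length. In pulldown RNA scaled to its total, a change within adipocytes and a changed share of RNA from other cells cannot be told apart.

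Each difference was tested as HFD minus chow on log2(CPM + 1), by limma with Benjamini-Hochberg adjustment over 11643 genes and a threshold of 0.05. Of the 8 members, all of which passed the filter of a mean of at least 1 CPM, 3 were called lower, 0 higher and 5 were not called. At an unadjusted limma p under 0.05, 5 members were lower, against 21.6% of tested genes, and 1, Mpc2, was higher (p 0.0292), against 23.9%. Over all tested genes 35.1% were called, 16.0% lower and 19.1% higher. The members' median log2 fold change was -0.41, and that of all tested genes -0.004. The libraries of the diets did not overlap in 5 of the 8, against 50.2% of tested genes. In 4 every HFD library lay below every chow library, against 25.0% of tested genes, and in 1 every HFD library lay above, against 25.2%.

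The libraries held 7430000 to 39400000 reads by their effective size, read from the steps between low values. The shallowest was chow replicate 3, yet the lowest number of reads behind a member there was 562, for Pdk2. Signal of the ribosomal RNA precursor (Rn45s) was also highest there, at 23170 CPM, with 4068 to 12503 CPM elsewhere. Each of the 8 members had its highest chow level in that library, and the part of that library's depth or ribosomal RNA in their values was not tested. Its CPM values summed to 1182123 over the listed genes, against 984422 to 1030469 in the others. With equal totals in every library 65.3% of called genes were higher in HFD, against 54.4% as deposited. Setting the median adipocyte marker equal between libraries made it 91.7% and moved the median of all genes to 0.44. Under that scaling Pdk2 stayed lower and called, and Pcx stayed below 0 without a call. The values for Pdhb, Dlat, Dld, Pdhx and Pdk4 there were above 0, between 0.035 and 0.38, and lay below the median of all genes.

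**Figure D1:**
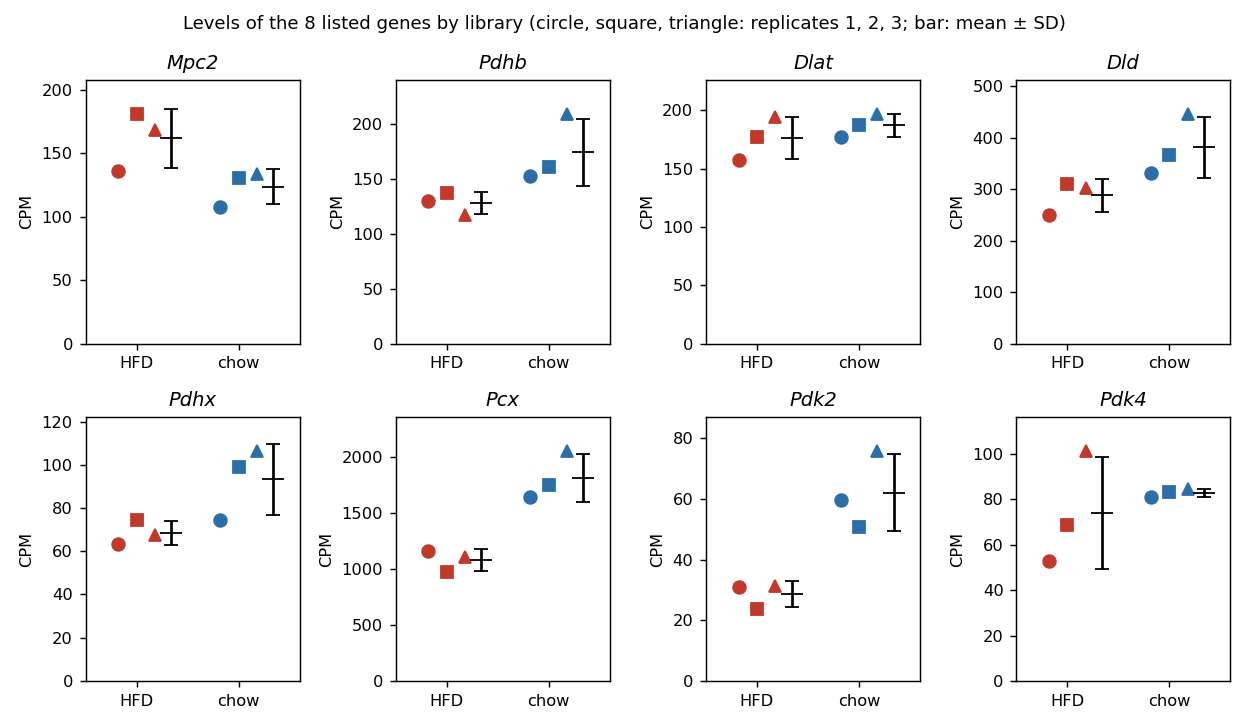
Level of each listed gene in CPM (vertical axis, from 0) in each HFD and chow library, with the mean and SD as a bar. The HFD libraries of Pdk2 lie between 23.8 and 31.3 CPM and the chow libraries between 50.6 and 75.6 CPM. For Pdk4 the HFD libraries spread from 52.7 to 101 CPM around chow libraries at 81.0 to 84.4 CPM.

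The carrier was represented by Mpc2, one of its partners. Mpc2 stood at 136, 181 and 169 CPM in the HFD libraries 1, 2 and 3, against 108, 131 and 133 CPM in the chow libraries 1, 2 and 3. Every HFD library lay above every chow library, though HFD replicate 1 was within 3 CPM of chow replicate 3. The difference, 0.38 on the log2 scale with a standard error of 0.15 and a 95% interval of 0.05 to 0.71, fell short of the threshold (limma adjusted p 0.0731). It passed with equal totals (0.49, adjusted p 0.0299), with quantile normalization (0.46, adjusted p 0.0217), under scaling to the median adipocyte marker (0.85, adjusted p 0.00449) and without HFD replicate 1 (0.50, adjusted p 0.04). It was above 0 in each of the 16 alternatives. The median of all genes itself moved to 0.1 with equal totals and to 0.44 under the marker scaling. Relative to that median Mpc2 was 0.39 as reported, 0.39 with equal totals and 0.41 under the marker scaling. With quantile normalization it was 0.53 relative to the median. Mpc2 lies on chromosome 1 at 165461260 to 165481218 (GRCm38.p6).

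The genes nearest to Mpc2 in pattern, by the root mean square difference of mean-centred log2(CPM + 1) over the 6 libraries among 8948 other genes of at least 10 CPM, were Vapa (0.024), Rars (0.030) and Mtpn (0.040). Its nearest fellow member was Dlat, much farther away at 0.255.

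The 4 listed subunits of the pyruvate dehydrogenase complex had lower means in HFD to unequal degrees. Of these 4, 1 was called lower, where 16.0% of all tested genes were. Pdhb encodes the beta chain of the decarboxylase that opens the reaction. It stood at 130, 137 and 118 CPM in HFD, against 153, 161 and 209 CPM in chow. The diets did not overlap, and chow replicate 3 lay well above the other chow libraries. Pdhb fell by 26.5% in mean level, with a log2 fold change of -0.43 (SE 0.15, limma adjusted p 0.0459). This call sat close to the threshold: it was lost without any 1 of the HFD libraries or of chow replicates 2 and 3 (adjusted p 0.0619 to 0.163). Equal totals (adjusted p 0.0778), quantile normalization (0.0549) and a fit without a variance trend (0.0776) also ended it, and scaling to the median adipocyte marker turned its sign (0.035, adjusted p 0.869).

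Dlat encodes the acetyltransferase core of the complex, which carries the lipoyl arms. It stood at 158, 177 and 194 CPM in HFD, against 177, 187 and 197 CPM in chow, so the diets overlapped. On the log2 scale the difference was -0.09 with a standard error of 0.12 (limma adjusted p 0.605) and a 95% interval of -0.37 to 0.19. The sign turned with equal totals (0.021), quantile normalization (0.009) and scaling to the median adipocyte marker (0.38), with no call in any alternative.

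Dld encodes the dehydrogenase that reoxidizes the lipoyl arms, and other ketoacid dehydrogenases and the glycine cleavage system use it too. It stood at 251, 311 and 302 CPM in HFD, against 331, 367 and 446 CPM in chow. Each HFD library lay below each chow library, and HFD replicate 1 was the lowest. The difference was -0.40 on the log2 scale with a standard error of 0.15 (limma adjusted p 0.0665), which passed without chow replicate 1 (-0.495, adjusted p 0.0452) and not without any other single library.

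Pdhx encodes the protein that tethers the product of Dld to the core. It stood at 63.1, 74.5 and 67.6 CPM in HFD, against 74.5, 99.0 and 106 CPM in chow. HFD replicate 2 and chow replicate 1 had the same value, and the other libraries were separated by diet. The difference was -0.43 on the log2 scale with a standard error of 0.16 (limma adjusted p 0.0584), and without chow replicate 1 it was -0.58 (adjusted p 0.0156). Dld and Pdhx were each other's nearest member in pattern, at a root mean square difference of 0.092 on the log2 scale, and Pdhb lay nearest to Dld (0.123). Under scaling to the median adipocyte marker Dld (0.068) and Pdhx (0.035) were above 0, without a call.

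**Figure D2:**
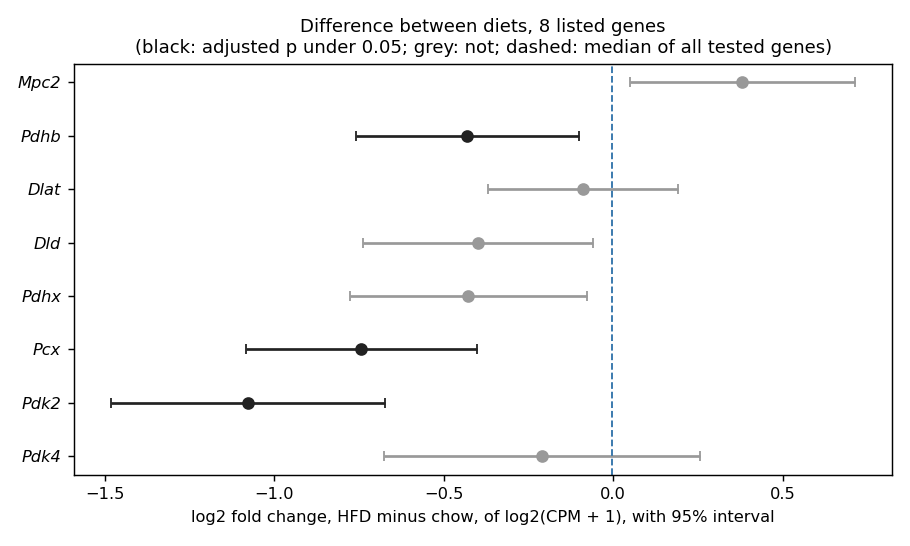
Log2 fold change, HFD minus chow, of log2(CPM + 1) with its 95% interval for the 8 listed genes, black where the adjusted p was under 0.05. Pdk2 at -1.08 and Pcx at -0.74 lie farthest from the dashed median of all tested genes (-0.004), and Mpc2 at 0.38 lies on the other side of it. Under scaling to the median adipocyte marker, not drawn here, Pdhb, Dlat, Dld, Pdhx and Pdk4 were above 0, as was Dlat with equal totals or quantile normalization and Pdk4 without HFD replicate 1.

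Pcx, the other matrix enzyme that takes pyruvate, was called lower. Pyruvate carboxylase, a biotin enzyme, refills oxaloacetate for citrate and for glycerol synthesis in fat cells. It stood at 1160, 976 and 1105 CPM in HFD, against 1641, 1746 and 2048 CPM in chow. The groups were separated by a wide gap, and chow replicate 3 was again the highest. Pcx fell by 40.4% in mean level, with a log2 fold change of -0.74 (SE 0.15, limma adjusted p 0.00518, 95% interval -1.08 to -0.40). It was called without each single library (adjusted p 0.00744 to 0.0301), and under 15 of 16 alternatives in all. The exception was scaling to the median adipocyte marker, where it was -0.275 (adjusted p 0.162), or -0.71 relative to the median of all genes there.

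Pcx lies on chromosome 19 at 4510472 to 4621752 (GRCm38.p6), and its span holds another listed gene, Lrfn4. The library kit does not mark strand, so where exons overlap, reads of both cannot be told apart. Lrfn4 stood at 12.0, 3.07 and 6.36 CPM in HFD, against 27.3, 16.1 and 18.9 CPM in chow. These levels are small beside those of Pcx. Within a library the log2 ratio of Pcx to Pdhb was 3.15, 2.82 and 3.22 in HFD, against 3.41, 3.43 and 3.28 in chow, without overlap. The difference of -0.31 had an exact two-sided permutation p of 0.1, the smallest that 3 against 3 allows (0.133 adjusted over 4 ratios). This ratio was chosen after seeing the data, so its p is descriptive only. Without HFD replicate 2 the difference was -0.19.

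Of the kinases that inactivate the complex, Pdk2 fell and Pdk4 did not pass. Pdk2 stood at 30.9, 23.8 and 31.3 CPM in HFD, against 59.7, 50.6 and 75.6 CPM in chow. The highest HFD library was far below the lowest chow library. Pdk2 fell by 53.7% in mean level, with a log2 fold change of -1.08 (SE 0.18, limma adjusted p 0.00182, 95% interval -1.48 to -0.67), lower than all but 3.18% of tested genes. It was called in all 16 alternatives, with log2 fold changes of -1.21 to -0.62 and adjusted p-values up to 0.0224. Pdk2 lies on chromosome 11 at 95026258 to 95041371 (GRCm38.p6).

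The genes nearest to Pdk2 in pattern, by the same measure and over the same 6 libraries, were Zadh2 (0.051), Ppp1r15b (0.078) and Ppm1m (0.085). Its nearest fellow member was Pcx (0.209).

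Pdk4, the kinase gene best known for its induction by fasting, PPAR ligands and glucocorticoids, stood at 52.7, 68.6 and 101 CPM in HFD, against 81.0, 83.3 and 84.4 CPM in chow. The chow libraries were nearly equal, and the HFD libraries fell on both sides of them. The highest library was 1.92 times the lowest in HFD and 1.04 times the lowest in chow. On the log2 scale the difference was -0.21 with a standard error of 0.21 (limma adjusted p 0.463) and a 95% interval of -0.68 to 0.26. Its sign depended on 1 library: it was 0.007 without HFD replicate 1 (adjusted p 0.983) and -0.46 without HFD replicate 3 (adjusted p 0.0814). Scaling to the median adipocyte marker also turned it (0.25, adjusted p 0.437). Pdk4 lies on chromosome 6 at 5483351 to 5496278 (GRCm38.p6).

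The kinase genes were also set against each other within each library. The log2 ratio of Pdk4 to Pdk2 was 0.75, 1.49 and 1.66 in HFD, against 0.43, 0.71 and 0.16 in chow. HFD replicate 1 stood just above the highest chow library. The mean was 1.30 ± 0.48 in HFD and 0.43 ± 0.28 in chow (SD, n = 3 each), a difference of 0.87 with an exact two-sided permutation p of 0.1, the smallest possible here (0.133 adjusted over 4 ratios). A ratio within a library hardly depends on the scaling between libraries, and shows unequal change of the 2 genes, not their amounts. The ratio of Mpc2 to Pcx was -3.08, -2.42 and -2.70 in HFD, against -3.92, -3.73 and -3.93 in chow. The difference of 1.12 had an exact permutation p of 0.1 (0.133 adjusted). That pair was chosen after seeing the data. Every HFD library lay above chow for Mpc2 and below chow for Pcx, so this p was fixed in advance and adds nothing. The ratio of Pdk4 to Pdhb, also chosen after seeing the data, overlapped between diets. It was -1.28, -0.99 and -0.22 in HFD, against -0.91, -0.94 and -1.30 in chow (difference 0.22, exact permutation p 0.8).

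**Figure D3:**
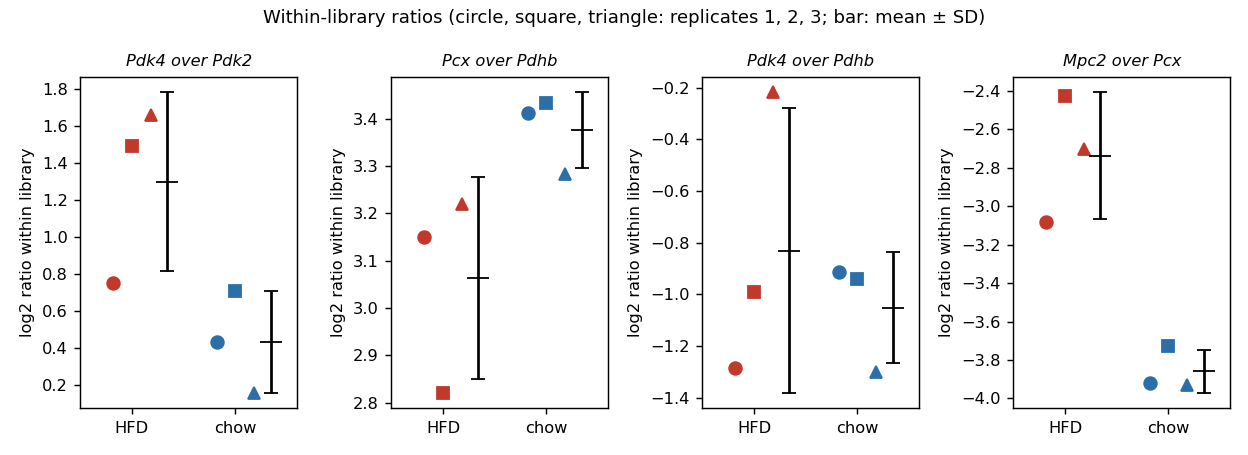
Log2 ratio between pairs of listed genes within each library (vertical axis, own range in each panel), with mean and SD as a bar. HFD libraries lie above chow for Pdk4 over Pdk2 (0.75 to 1.66, against 0.16 to 0.71) and for Mpc2 over Pcx (-3.08 to -2.42, against -3.93 to -3.73), below chow for Pcx over Pdhb, and among chow for Pdk4 over Pdhb.

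The phosphatase side of the switch was called lower as well, and the other kinase genes measured were not called. Of 15 genes of regulation and of lipoylation, the attachment of lipoyl arms, 5 were called lower and 1 higher (16.0% and 19.1% of all tested genes), with a median of -0.27. Scaling to the median adipocyte marker left 1 called lower and 2 higher, where 407 of 11643 tested genes were called lower and 4490 higher. Pdp1 and Pdp2, which encode the phosphatases that switch the complex on, and Pdpr, which encodes a regulatory subunit of the phosphatase, fell, by 0.67, 0.90 and 0.79 on the log2 scale (limma adjusted p 0.00916, 0.00172 and 0.000998). Pdp2 stood at 28.1, 22.6 and 23.8 CPM in HFD, against 42.2, 46.2 and 52.7 CPM in chow, with a clear gap. The kinase genes Pdk1 (-0.27, adjusted p 0.117) and Pdk3 (-0.26, adjusted p 0.387) were not called. Pdp1, Pdpr, Lias, Pdk1 and Pdk3 were named for their roles after their values were seen. Under scaling to the median adipocyte marker Pdp1 (-0.22), Pdp2 (-0.44) and Pdpr (-0.32) stayed below 0 without a call, and Pdk1 (0.19) and Pdk3 (0.18) turned.

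Of the lipoylation genes in that list of 15, Mcat and Lias were called lower, Isca2 was called higher and the others were not called. The shares over all tested genes were 16.0% lower and 19.1% higher. Mcat, of mitochondrial fatty acid synthesis, from which the arm is made, fell to 25.2 ± 2.34 CPM in HFD, against 51.6 ± 3.58 CPM in chow (SD, n = 3 each). The lipoyl synthase gene Lias fell by 0.48 on the log2 scale (limma adjusted p 0.0226), a call lost without HFD replicate 1 (0.0716) or 3 (0.078) and under scaling to the median adipocyte marker (-0.015, adjusted p 0.949). Isca2, of iron-sulfur cluster assembly, rose to 71.2 ± 13.6 CPM in HFD, against 47.6 ± 3.87 CPM in chow (adjusted p 0.021), a call lost without HFD replicate 2 (0.0752) or chow replicate 3 (0.0506).

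The complexes built like pyruvate dehydrogenase, which share Dld or its lipoyl chemistry, formed another list. Of 10 tested genes 8 were called lower, against 16.0% of all tested genes, and 2 were not called, with a median of -0.68. With the median adipocyte marker set equal, 3 were called lower and 2 higher, against 407 lower and 4490 higher of 11643 tested genes. Dbt, the lipoyl core of the branched-chain ketoacid dehydrogenase, fell to 110 ± 12.3 CPM in HFD, against 224 ± 24.3 CPM in chow (limma adjusted p 0.000542). Ppm1k, the phosphatase that activates that complex, fell by 1.48 on the log2 scale.

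Pcx carries biotin, and a list of other biotin enzymes, their partner subunits and genes of biotin uptake and handling had the lowest median of the 7 lists around the members. Of 8 tested genes 6 were called lower, against 16.0% of all tested genes, and 2 were not called, with a median of -0.99. After scaling to the median adipocyte marker 5 were called lower and 1 higher, against 407 lower and 4490 higher of 11643 tested genes. Acacb, an acetyl-CoA carboxylase of mitochondria, fell to 54.1 ± 19.6 CPM in HFD, against 265 ± 45.2 CPM in chow (limma adjusted p 0.000144). Slc5a6, a transporter of biotin and other vitamins whose span overlaps the listed gene Atraid, fell by 1.46 on the log2 scale.

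Upstream, genes of pyruvate supply and of its other fates went both ways, with a median of -0.06. Of 17, 4 were called higher, 4 lower and 9 not called, where 19.1% of all tested genes were higher and 16.0% lower. Under scaling to the median adipocyte marker 7 were called higher and 1 lower, against 4490 higher and 407 lower of 11643 tested genes. Without HFD replicate 3 the number called higher was 2, where 1683 of 11625 tested genes were called higher. The glycolytic genes Tpi1 and Eno1 rose by 1.16 and 0.79 on the log2 scale (limma adjusted p 0.000247 and 0.00104). Tpi1 overlaps the listed gene Spsb2, and glycolytic genes have near-identical copies that could split reads. Gpt2, the mitochondrial enzyme that exchanges pyruvate and alanine, fell to 420 ± 32.0 CPM in HFD, against 1134 ± 235 CPM in chow (adjusted p 0.000276). Slc16a7, a plasma membrane carrier of pyruvate and lactate, fell by 0.69 on the log2 scale, and under scaling to the median adipocyte marker was -0.24 without a call.

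Downstream, of 15 genes of the citrate and malate shuttles 2 were called higher, 5 lower and 8 not called (median -0.17). The shares over all tested genes were 19.1% higher and 16.0% lower. The balance of this list turned under scaling to the median adipocyte marker, with 4 called higher and 1 lower. Over all 11643 tested genes 4490 were called higher and 407 lower there. The number called lower was 3 with equal totals and 2 or 3 without any 1 of the HFD replicates 2 and 3 and the chow replicates 1 and 2. Of 11625 to 11653 tested genes, 1333 were called lower with equal totals and 1162 to 1645 without those single libraries. Slc25a10, the dicarboxylate carrier, rose to 407 ± 16.3 CPM in HFD, against 194 ± 3.40 CPM in chow (limma adjusted p 0.00014). Acss2, which makes cytosolic acetyl-CoA from acetate, rose by 0.79 on the log2 scale. Pck1, which draws on oxaloacetate for glycerol synthesis, fell to 1728 ± 440 CPM in HFD, against 3815 ± 1396 CPM in chow, a call lost without HFD replicate 3 (adjusted p 0.0657). Mdh2, the malate dehydrogenase of mitochondria, fell by 0.73 on the log2 scale, and under scaling to the median adipocyte marker was -0.26 without a call.

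Genes that are known to respond to the same signals as Pdk4 went both ways too (median -0.43). Against shares of 19.1% higher and 16.0% lower over all tested genes, 3 were called higher, 7 lower and 7 not called of 17. The balance of this list turned under scaling to the median adipocyte marker, with 7 called higher and 3 lower. Over all 11643 tested genes 4490 were called higher and 407 lower there. Fkbp5, a glucocorticoid-induced gene, stood at 52.7, 44.6 and 97.0 CPM in HFD, against 136, 204 and 221 CPM in chow (log2 fold change -1.57, limma adjusted p 0.00267). Like Pdk4 it was highest among HFD libraries in replicate 3, but unlike Pdk4 it lay below chow in every HFD library. Cpt1a and Cpt1b, which admit fatty acids to mitochondria, rose by 0.90 and 1.51 on the log2 scale, and Cpt1a lost its call without chow replicate 3 (adjusted p 0.0508). Acot2, a mitochondrial thioesterase gene, fell by 1.53.

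Genes that mark mitochondrial content were measured beside these. Of 25 rows, 7 were called lower and 1 higher (16.0% and 19.1% of all tested genes), with a median of -0.30. Under scaling to the median adipocyte marker 2 were called higher and each of the lower calls was lost. Over all 11643 tested genes 4490 were called higher and 407 lower there. The number called lower was 4 with equal totals or without a variance trend, 3 without any 1 of the HFD libraries and 4 without chow replicate 3. Of 11596 to 11664 tested genes, 1333 were called lower with equal totals and 1697 without a variance trend. Over the table it was 1162 to 1466 without an HFD library and 1740 without chow replicate 3. Tfam, of mitochondrial DNA upkeep, and Ppargc1b, a coactivator, fell by 0.78 and 0.88 on the log2 scale; under scaling to the median adipocyte marker they were -0.32 and -0.47 without a call. Tomm20, of the import pore, rose by 0.62. The part of mitochondrial content in the members' falls was not tested.

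**Figure D4:**
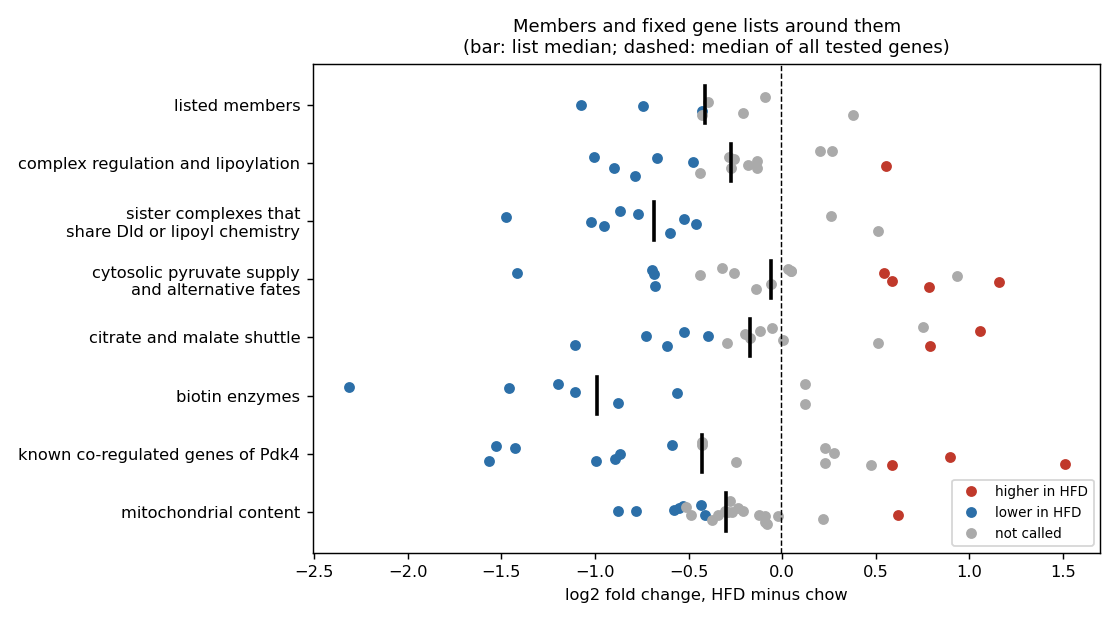
Log2 fold change, HFD minus chow, of each gene in the 8 listed members and the 7 lists around them, coloured by call, with a bar at each median and a dashed line at the median of all tested genes. The medians run from -0.99 for biotin enzymes and handling to -0.06 for cytosolic pyruvate supply, with -0.41 for the members. Scaling to the median adipocyte marker, not drawn here, turned the balance of calls in several lists as given in the text. It called 4490 of 11643 tested genes higher and 407 lower.

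Markers of other cells moved with the diet, where 19.1% of all tested genes were called higher and 16.0% lower. Of the adipocyte markers 23 were listed, with Scd1 and Car3 the most abundant, and they summed to 45400 to 51000 CPM in HFD and 57000 to 94800 CPM in chow, with 3 called higher and 10 lower. Of 15 tested macrophage markers 13 were called higher and 1 lower, and all 16 summed to 371 to 582 CPM in HFD and 122 to 151 CPM in chow. Endothelial markers (9 of 10 called higher) summed to 157 to 302 CPM in HFD and 32.5 to 84.4 CPM in chow, and smooth muscle markers (7 of 7) to 1010 to 1390 CPM in HFD and 352 to 422 CPM in chow. Fibroblast and progenitor markers (5 higher and 1 lower of 11) summed to 1450 to 2940 CPM in HFD and 1820 to 2760 CPM in chow. Mesothelial markers (3 higher of 8) summed to 50.9 to 151 CPM in HFD and 21.2 to 34.3 CPM in chow, with Krt8 at the lowest value of the table in at least 1 library. Genes for pyruvate entry are used by most cell types, and the part of these other cells in the members' values was not tested.

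**Figure D5:**
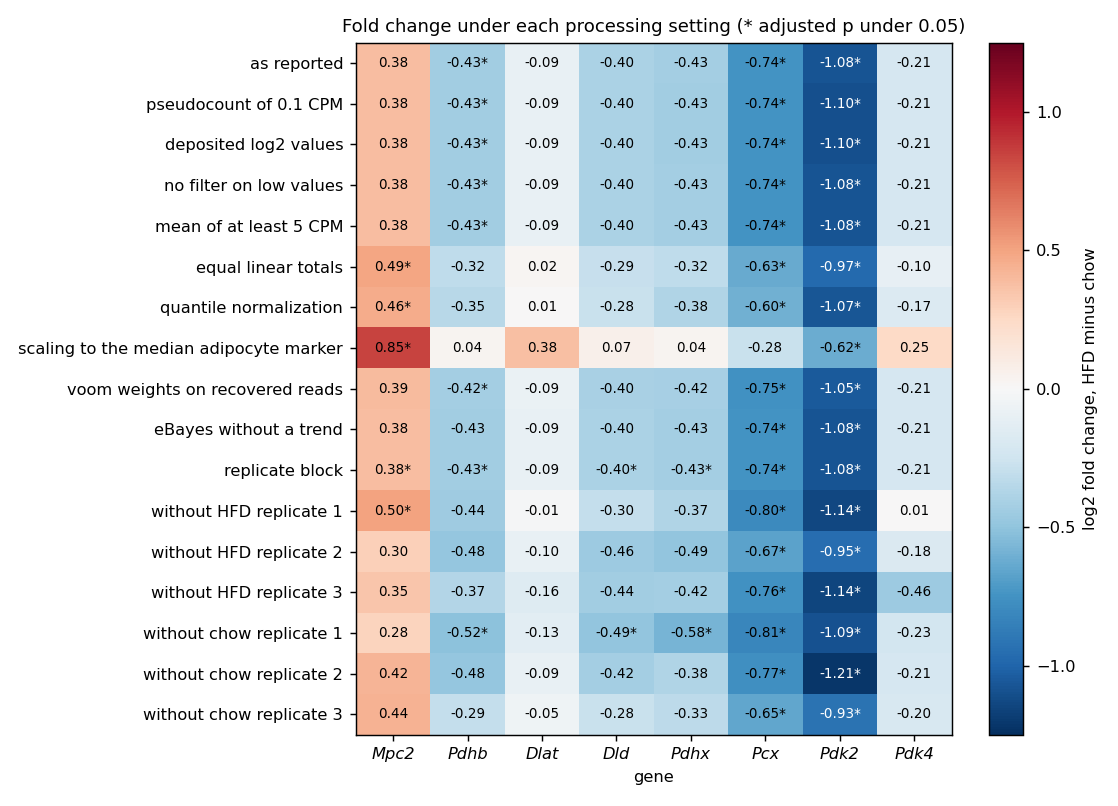
Log2 fold change, HFD minus chow, of the 8 listed genes (columns) as reported and under 16 alternatives (rows), with an asterisk where the adjusted p was under 0.05. Pdk2 carries an asterisk in every row and Pcx in all but scaling to the median adipocyte marker, whereas Pdhb, Mpc2, Dld and Pdhx gain or lose it between rows. Dlat and Pdk4 carry none, and signs turn for Pdhb, Dlat, Dld, Pdhx and Pdk4 in the rows given in the text.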

How the data were processed

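Translating RNA from 6 libraries (3 HFD, 3 chow) was analysed; the 5 H3K27ac and 2 PPARG chromatin samples were not analysed here. RNA was pulled down with anti-GFP, depleted of ribosomal RNA, and tagmented with Nextera XT before HiSeq2500 sequencing, per the labels' protocols. The labels' molecule field instead names polyA RNA, and the conflict was not settled. The deposited values are log2 CPM, 1 column per library, rounded to 2 decimals; the log2 scale was read from the values. Tools named in the submitters' processing notes include featureCounts, edgeR, HISAT2 and Picard, with build mm10. The sources used here give no role or version for them and no filter. No column was left unmapped.

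Values were back-transformed to CPM. A two-sided moderated test with a variance trend (limma 3.58.1, R 4.3.3) was run on log2(CPM + 1), keeping genes whose mean reached 1 CPM. Fold changes on that scale understate those of low genes. Depth was recovered from steps of low values, whole within 0.1 of a read in every library. The fit was tested on simulated data with few changed genes and a fixed spread, unlike the deposited table. Its error rates on the deposited table are not known from that test. Members and gene lists were chosen with earlier results of these data known. Named genes were all members, the 2 risen and 2 fallen called genes with the largest change in each pathway list, the most abundant markers, and genes added for their roles; markers at the table's lowest value were named too. Positions, overlaps and sequences are from RefSeq on GRCm38.p6, the assembly mm10 denotes. Alternatives were pseudocounts, filters, scalings, voom weights, the variance trend, a replicate block and leaving out each library. Replicate numbers were not taken as pairs in the main fit. Deviations of same-numbered libraries correlated at 0.433, 0.232 and 0.086, and those of differently numbered libraries at -0.389 to 0.15. Whether the numbers pair the libraries was not settled. Ratios other than Pdk4 to Pdk2 were chosen after seeing the data. The result of 1 marker list is not reported here.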

Additional observations from a re-analysis of the deposited data

How the results depend on the processing

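Leaving out single libraries gave 0 to 1 members called higher and 2 to 5 called lower. Of 11596 to 11664 tested genes, 1683 to 2102 were then called higher and 1162 to 1740 lower. Scaling to the median adipocyte marker gave 4490 genes higher and 407 lower, with 1 member higher (Mpc2) and 1 lower (Pdk2), and turned Pdhb (0.035), Dlat (0.38), Dld (0.068), Pdhx (0.035), Pdk4 (0.25), Pdk1 (0.19) and Pdk3 (0.18). That scaling rests on 23 markers whose median log2 fold change was -0.49. Equal totals and quantile normalization each gave 1 member higher and turned Dlat (0.021 and 0.009). Of 11643 tested genes, equal totals called 2513 higher and 1333 lower, and quantile normalization 1989 higher and 2289 lower. Without HFD replicate 1 Pdk4 was 0.007, and without HFD replicate 3 the log2 ratio of Pdk4 to Pdhb differed by -0.086; over the libraries left out these ran from -0.46 to 0.007 and from -0.086 to 0.447. With a replicate block 1 member was called higher and 5 lower, as Mpc2 (limma adjusted p 0.0249), Dld (0.0285) and Pdhx (0.0245) passed as well. Calls also rose over the table with that block, to 2594 higher and 2245 lower of 11643, against 2221 and 1863 in the main fit. Whether the numbers pair the libraries was not settled by the check described. Of the 16 alternatives Pdk2 was called in 16, Pcx in 15, Pdhb in 7, Mpc2 in 5, and Dld and Pdhx in 2 each. The cause of these changes was not tested. With 3 libraries a diet, a ratio cannot reach a permutation p under 0.1, and small differences of Dlat or Pdk4 are within their intervals.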
